A study of Mus musculus with 26 samples.

Results

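MHC class I presents peptides made inside the cell to CD8 T cells, and its genes were followed here in thymocytes that were themselves undergoing positive selection on MHC class I. The 10 genes described were taken by symbol from the 46517 genes of the table. They are the heavy chains H2-K1, H2-D1, H2-Q6, H2-Q7 and H2-T23, the light chain B2m, the peptide transporter subunits Tap1 and Tap2, the peptide editor tapasin (Tapbp) and the transactivator Nlrc5. All 10 passed the filter on low values, which left 16372 genes to test. Bulk RNA-seq was carried out on 26 libraries of sorted thymocytes from 3 mouse lines, each with a transgenic T cell receptor restricted by MHC class I. By their self-reactivity the lines rank TG6 (low), F5 (intermediate) and OT-1 (high). OT-1 mice were Rag2-/-, F5 mice were Rag1-/-, and TG6 mice were H2b/d with no Rag deletion given, so that line, H2 haplotype and Rag genotype cannot be told apart in any contrast with TG6. Each line was sorted into 3 populations. Double-positive cells (CD4+CD8+) that were CXCR4+ and CCR7- are called early, and those that were CXCR4- and CCR7+ are called late in positive selection, while mature CD8SP cells lacked CD4 and were also CXCR4- and CCR7+. Each of the 9 groups had 3 mice, except late TG6, which had 2. Each line models selection with a single receptor transgene, and mice were between 3 and 10 weeks old. F5 and OT-1 mice were on C57/BL6, and TG6 mice came from C57/BL6 x B6.C-H2d/bByJ.

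A class I molecule is a heavy chain paired with beta2-microglobulin and a short peptide. The proteasome makes the peptides, the TAP transporter carries them into the endoplasmic reticulum, and tapasin holds TAP and the empty molecule together while a fitting peptide is bound. H2-K1 and H2-D1 are the classical heavy chains, whereas H2-Q6, H2-Q7 and H2-T23 belong to the nonclassical Qa group, H2-T23 coding for Qa-1. NLRC5 has no DNA-binding domain of its own and acts at class I promoters through factors bound to the SXY module, which holds CREB/ATF-like and CCAAT sites. Cortical double-positive thymocytes are known for low surface class I, which rises as they mature.

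Of the 10 genes, 8 lie on chromosome 17 of GRCm38 by the GENCODE vM21 annotation: Tapbp at chr17:33915899-33929292, H2-K1 at chr17:33996017-34000347, Tap1 at chr17:34187553-34197225, Tap2 at chr17:34203527-34216321, H2-D1 at chr17:35262730-35267499, H2-Q6 at chr17:35424850-35430055, H2-Q7 at chr17:35439155-35443773 and H2-T23 at chr17:36029773-36032855. B2m lies at chr2:122147686-122153083 and Nlrc5 at chr8:94434356-94527272. H2-K1 and H2-T23 are on the minus strand and the other 8 on the plus strand. The haplotype label of TG6 concerns the genes of the H2 complex on chromosome 17, not B2m or Nlrc5.

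Because several of the genes moved together through the stages, the 250 bases upstream of the RefSeq start are shown for 6 of the 8 members that had an entry (RefSeq, GRCm38.p6, each on its gene's own strand). Nlrc5 and Tap2 are named only. The capitals mark matches on either strand to 4 motifs: the CCAAT box of NF-Y, the TGACG core of CREB/ATF sites, the GAAANNGAA repeat of interferon response elements and GGGATTCCC as in NF-kappaB sites.
H2-K1, chr17:34000348-34000597, minus strand: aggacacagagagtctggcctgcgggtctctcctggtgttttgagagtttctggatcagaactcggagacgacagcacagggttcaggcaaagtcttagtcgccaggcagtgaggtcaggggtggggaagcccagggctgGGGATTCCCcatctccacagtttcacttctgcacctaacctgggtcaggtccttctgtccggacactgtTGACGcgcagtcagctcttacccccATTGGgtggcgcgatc
H2-D1, chr17:35262844-35263093, plus strand: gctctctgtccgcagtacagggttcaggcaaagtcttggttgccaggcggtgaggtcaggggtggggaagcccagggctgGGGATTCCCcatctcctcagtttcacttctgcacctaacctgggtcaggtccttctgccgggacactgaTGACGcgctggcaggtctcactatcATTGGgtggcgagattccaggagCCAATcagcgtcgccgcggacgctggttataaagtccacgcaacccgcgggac
H2-Q6, chr17:35424600-35424849, plus strand: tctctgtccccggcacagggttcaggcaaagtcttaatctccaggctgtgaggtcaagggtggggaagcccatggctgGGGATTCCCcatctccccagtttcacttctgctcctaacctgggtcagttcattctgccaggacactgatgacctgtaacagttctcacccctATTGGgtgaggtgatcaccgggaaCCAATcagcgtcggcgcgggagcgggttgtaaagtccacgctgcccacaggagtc
H2-Q7, chr17:35438905-35439154, plus strand: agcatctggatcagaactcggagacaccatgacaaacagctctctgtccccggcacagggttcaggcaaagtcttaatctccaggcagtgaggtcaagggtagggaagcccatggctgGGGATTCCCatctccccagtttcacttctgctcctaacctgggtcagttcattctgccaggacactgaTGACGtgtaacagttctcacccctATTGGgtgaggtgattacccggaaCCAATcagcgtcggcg
B2m, chr2:122147437-122147686, plus strand: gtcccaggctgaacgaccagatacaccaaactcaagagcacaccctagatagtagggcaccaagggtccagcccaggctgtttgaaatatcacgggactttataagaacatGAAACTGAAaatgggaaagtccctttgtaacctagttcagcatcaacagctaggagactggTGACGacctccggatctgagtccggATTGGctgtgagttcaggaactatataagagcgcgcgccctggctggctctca
Tap1, chr17:34187306-34187555, plus strand: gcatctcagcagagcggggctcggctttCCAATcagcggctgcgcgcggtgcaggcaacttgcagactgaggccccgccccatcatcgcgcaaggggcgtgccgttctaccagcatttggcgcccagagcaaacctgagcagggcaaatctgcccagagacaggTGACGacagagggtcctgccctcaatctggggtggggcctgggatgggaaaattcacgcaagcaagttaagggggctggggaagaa
CCAAT was present in 8 of the 8 members' windows and in 33.8% of 32817 RefSeq promoter windows of the same length. The Tapbp window (chr17:33919228-33919477), not shown, lies inside the gene coordinates given above, as does that of H2-D1. Its CCAAT matches began 248 and 165 bases upstream of the RefSeq start. H2-K1 had a second window, chr17:34000334-34000583, which is not shown. TGACG was present in 5 of 8 (H2-K1, H2-D1, H2-Q7, B2m and Tap1) and in 17.7% of all windows. The windows of H2-Q6 and H2-Q7 are largely alike, but TGACG was in that of H2-Q7 and not in that of H2-Q6. GAAANNGAA was present in B2m and H2-T23 and in 7.12% of all windows. Only this order of its longer and shorter parts was searched. The windows of H2-K1, H2-D1, H2-Q6 and H2-Q7 all hold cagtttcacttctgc, where these parts stand in the other order and were not matched. A window without a match to GAAANNGAA is therefore not shown to lack an interferon response element. GGGATTCCC was present in 4 of 8 (H2-K1, H2-D1, H2-Q6 and H2-Q7) and in 99 of all windows (0.302%). The windows of these 4 related genes are nearly the same around the match, so that their matches to any motif are not independent. The motif counts were given no test. 1 further motif was searched and matched in 0 of the 8 windows, against 7.01% of all windows. The matches describe the reference sequence, and binding was not measured.

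The values are normalized counts, and totals ran from 16134786 to 18944173 per library. The steps between low values gave an estimated 16162358 to 18344995 reads per library. Libraries of the same group correlated at 0.95 to 0.978 and those of different groups at up to 0.961. All libraries carried T cell genes, with Cd3e at 4798 to 8667 normalized counts and Cd8a at 15088 to 41213. Of 3 genes of natural killer cells, Ncr1 was at 0 in all 26 libraries and Klrb1c in 16, but Nkg7, which cytotoxic T cells also express, ran from 4.84 to 2793, and the list's sum moved with stage as the class I genes did, at 4.85 to 112 in the early and 1329 to 2794 in the mature libraries. Of 5 genes of endothelium and stroma, which summed to 1942 to 3732, Col3a1 was at 0 in 25 libraries and Cdh5 in 13, while Pecam1 ran from 1799 to 3627 and Pdgfrb from 16.3 to 175. Of 6 genes of thymic epithelium, which summed to 40 to 91, Foxn1 was at 0 in 25 and Krt5 in 24, with Psmb11 at 8.88 to 42.3. The 5 B cell genes summed to 108 to 319, with Pax5 at 0 in 19 libraries and Cd79b at 59.7 to 241. The 5 red cell genes summed to 33.9 to 1280.5. The 8 genes of macrophages and dendritic cells summed to 448 to 1284, most of it from Cst3 (359.6 to 1065). The part of such RNA in the class I values was not tested. In bulk RNA, a change in the share of cells that express a gene and a change in RNA per cell cannot be told apart.

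The first comparison asked how the class I genes change from early positive selection to the mature CD8SP stage within each line. In TG6, 9 of the 10 genes were higher at the mature stage and 0 were lower, against 34.6% of all genes (19.4% higher and 15.2% lower) called by limma at an adjusted p below 0.05. In OT-1, 8 were higher and 0 lower, against 23.2% of all genes (12.8% higher and 10.5% lower). In F5, 5 were higher and 1 lower, against 19.6% of all genes (10.8% higher and 8.79% lower). Under total scaling the split over all genes turned from 3184 higher and 2484 lower to 2783 and 3115 in TG6 and from 2092 and 1712 to 1803 and 2062 in OT-1, and the counts of the 10 genes called stayed at 9 and 8, all higher. The median log2 fold change of the 10 genes was 2.84 in TG6, 2.25 in OT-1 and 0.73 in F5, where the medians over all genes were −0.03, −0.01 and −0.01. H2-K1, H2-D1, B2m, Tapbp and Nlrc5 were called higher in all 3 lines. H2-T23 was called in TG6 (0.65 on the log2 scale, against −0.07 in F5 and 0.10 in OT-1), and Tap2 was called lower in F5.

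**Figure D1:**
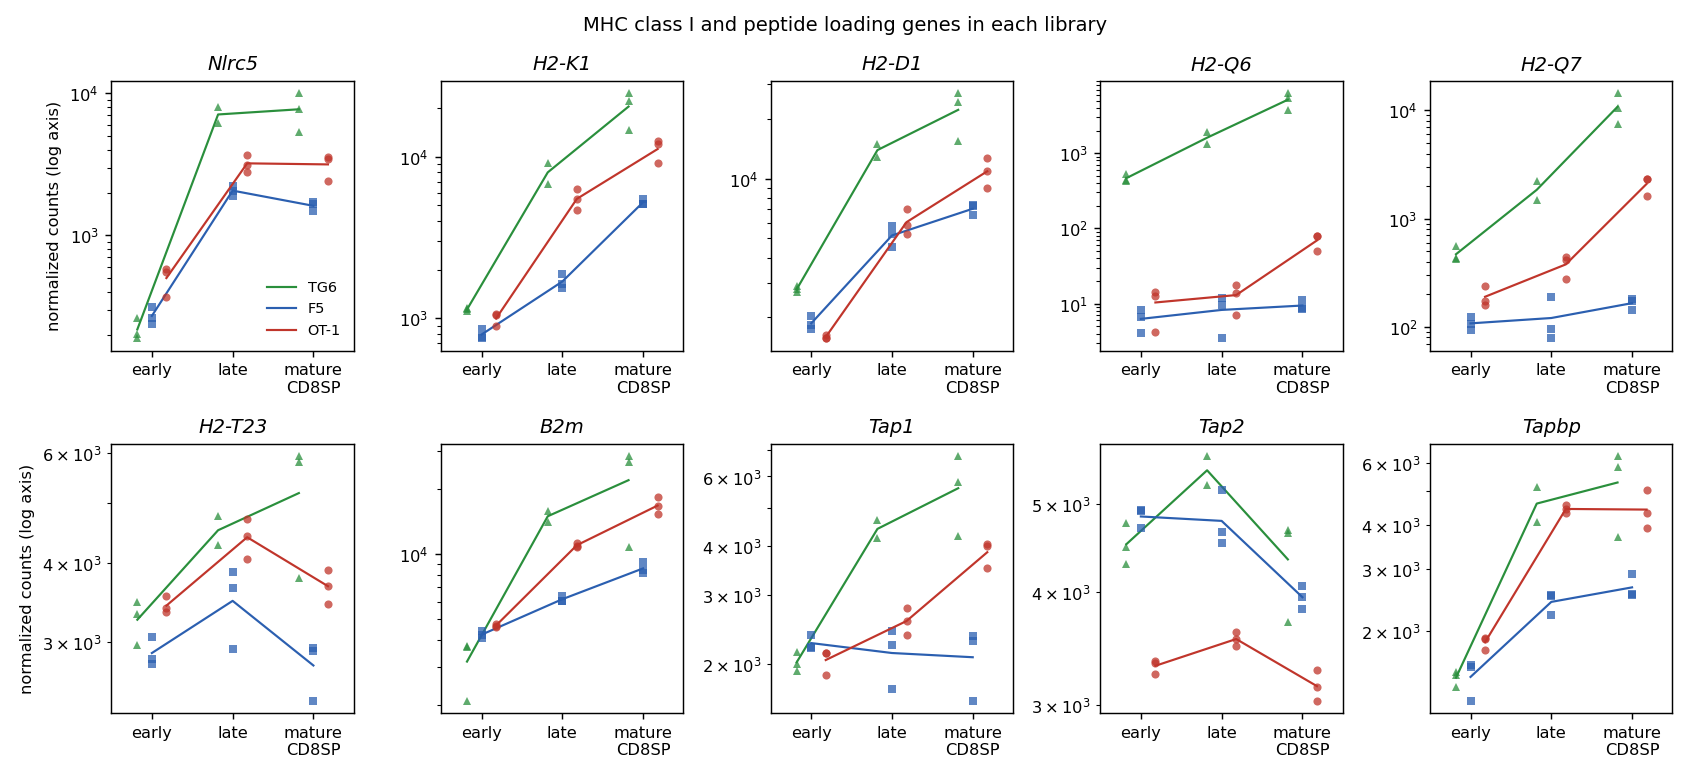
Normalized counts (log axis) of the 10 genes in each of the 26 libraries, by stage (horizontal axis) and line (TG6 green triangles, F5 blue squares, OT-1 red circles); lines join group means. Nlrc5 rose from early to late in each line, H2-K1 and H2-D1 rose at each step, H2-Q6 and H2-Q7 in F5 stayed at or below 188 normalized counts, and the 9 OT-1 libraries had the lowest Tap2 of all 26.

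Nlrc5, the transactivator of class I genes, rose the most of the 10 genes in TG6 between early and late positive selection. In TG6 it read 264, 201 and 188 normalized counts in the early libraries, 6211 and 7956 in the late libraries and 7771, 9981 and 5359.7 in the mature libraries. In F5 the values were 263, 312 and 239, then 2061, 1900.3 and 2229, then 1704, 1481 and 1654. In OT-1 they were 556, 576 and 370.0, then 3146, 3673 and 2809, then 3585, 3464 and 2415. The early libraries lay below the late libraries in every line with no overlap, and the 3 early OT-1 libraries lay above all early TG6 and F5 libraries. From early to late, Nlrc5 rose 32.5-fold in TG6 (log2 fold change 5.02 ± 0.23 SE, limma adjusted p = 1.61e-12). It rose 7.62-fold in F5 (log2 fold change 2.93 ± 0.21 SE, limma adjusted p = 5.02e-09) and 6.48-fold in OT-1 (log2 fold change 2.70 ± 0.21 SE, limma adjusted p = 1.78e-08). From late to mature it was not called in any line, with log2 fold changes of 0.09 (95% interval −0.40 to 0.57) in TG6, −0.35 (−0.79 to 0.08) in F5 and −0.04 (−0.47 to 0.40) in OT-1. The late and mature libraries overlapped in TG6 and OT-1, whereas in F5 all 3 mature libraries read below the 3 late ones.

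H2-K1 and H2-D1, the classical heavy chains, were called higher at both steps in all 3 lines. H2-K1 in TG6 read 1153, 1138 and 1117 in the early, 6826 and 9176 in the late and 21960.1, 24661 and 14616 in the mature libraries. In F5 it read 767, 866 and 752, then 1888, 1631 and 1553, then 5469, 5111 and 5099.7. In OT-1 it read 1058, 1044 and 895, then 5515, 6280.3 and 4663, then 11955, 12420.1 and 9078. No 2 stages of a line overlapped. Over the whole course H2-K1 rose 17.5-fold in TG6 (log2 fold change 4.13 ± 0.16 SE, limma adjusted p = 3.86e-14), 6.58-fold in F5 (log2 fold change 2.72 ± 0.16 SE, limma adjusted p = 8.1e-11) and 11.1-fold in OT-1 (log2 fold change 3.47 ± 0.16 SE, limma adjusted p = 8.33e-12). In TG6 and OT-1 the log2 change of H2-K1 from early to late (2.80 ± 0.18 and 2.45 ± 0.16 SE) was larger than that from late to mature (1.33 ± 0.18 and 1.02 ± 0.16). In F5 it was smaller (1.09 ± 0.16, then 1.63 ± 0.16). The difference in timing between lines was not tested, and the TG6 late to mature call of H2-K1 was lost when only its 2 groups were fitted (limma adjusted p = 0.0637).

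H2-D1 in TG6 read 2767, 2873 and 2676 in the early, 12913 and 14973 in the late and 24293, 26956 and 15491 in the mature libraries. In F5 it read 1751, 2023 and 1827, then 5750.5, 4542 and 5245, then 7358, 6567 and 7259. In OT-1 it read 1573, 1639.9 and 1568, then 5828, 7005 and 5293, then 10965, 12729.8 and 9027. Stages of a line did not overlap here either. From early to mature H2-D1 rose 7.81-fold in TG6 (log2 fold change 2.97 ± 0.16 SE, limma adjusted p = 2.97e-12), 3.78-fold in F5 (log2 fold change 1.92 ± 0.16 SE, limma adjusted p = 8.23e-09) and 6.78-fold in OT-1 (log2 fold change 2.76 ± 0.16 SE, limma adjusted p = 1.03e-10). The late to mature rise of H2-D1 in F5 was the least certain (log2 fold change 0.45 ± 0.16 SE, limma adjusted p = 0.0429), and this call was lost when any 1 of 5 of the 6 F5 libraries concerned was left out. The TG6 late to mature call (log2 fold change 0.64 ± 0.17 SE, limma adjusted p = 0.0107) was lost under quantile normalization (limma adjusted p = 0.0581), when only its 2 groups were fitted (0.227), and without late replicate 1 (0.13) or mature replicate 2 (0.0502).

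B2m codes for beta2-microglobulin, the light chain that pairs with the class I heavy chains. In F5 it read 4187, 4404 and 4072, then 6406, 6019 and 6063, then 8154, 9126 and 8404. In OT-1 it read 4653, 4720.2 and 4599, then 10864, 10752 and 11274, then 16671, 18280.3 and 15272. The stages of both lines were separate, and B2m rose from early to mature 2.03-fold in F5 (log2 fold change 1.02 ± 0.24 SE, limma adjusted p = 0.00388) and 3.58-fold in OT-1 (log2 fold change 1.84 ± 0.24 SE, limma adjusted p = 6.17e-06). In TG6 it read 3682, 3746 and 2077, then 14058 and 15809, then 26720.3, 28405 and 10716, a rise of 6.57-fold from early to mature (log2 fold change 2.72 ± 0.24 SE, limma adjusted p = 8.1e-09). TG6 replicate 3 was low at both of its stages, and the fit shares 1 estimate of the spread over all groups. With the replicate number within each line as a block, which stands for the mouse if same-numbered libraries share one, B2m was also called from late to mature in TG6 (log2 fold change 0.80, limma adjusted p = 4.91e-05), F5 (log2 fold change 0.47, limma adjusted p = 0.000814) and OT-1 (log2 fold change 0.61, limma adjusted p = 9.94e-05). Without the block, none of these 3 steps was called (limma adjusted p = 0.275, 0.186 and 0.0716). The F5 rise from early to late was called in the blocked fit as well (log2 fold change 0.55, limma adjusted p = 0.000173), against a limma adjusted p = 0.102 without the block. The TG6 late to mature block rests on the numbers of the late TG6 libraries, whose titles (TG62B) do not follow those of the other stages (TG6A and TG6C) and whose deviations correlated with the same numbers at 0.023 to 0.0507. With the block as a random term, an alternative chosen after seeing the data, the TG6 and OT-1 steps from late to mature were called (limma adjusted p = 0.0424 and 0.0153) and that of F5 was not, while the F5 step from early to late was (0.0263).

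**Figure D2:**
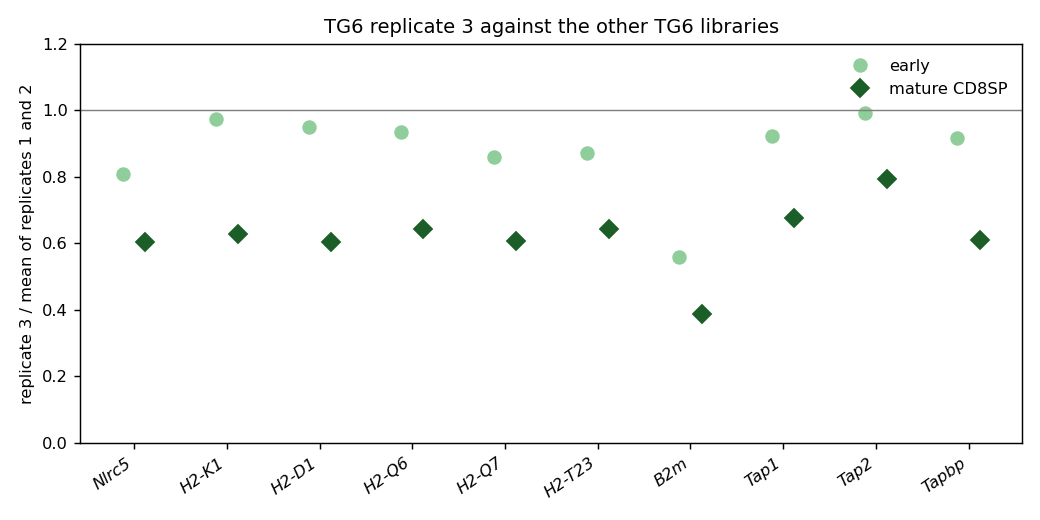
TG6 replicate 3 divided by the mean of TG6 replicates 1 and 2 for each of the 10 genes (horizontal axis), at the early (light circles) and mature CD8SP (dark diamonds) stages; the grey line marks 1. B2m was the lowest of the 10 at both stages, at 0.559 and 0.389.

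The TG6 replicate 3 libraries held 0.559 (early) and 0.389 (mature) of the B2m of replicates 1 and 2. The other 9 genes lay at 0.809 to 0.991 in the early library and at 0.604 to 0.794 in the mature library. Of 3299 genes with at least 1000 normalized counts in replicates 1 and 2 of both stages, B2m and Gm26917 were the only ones at or below the ratios of B2m at both. Gm26917, a gene named after its values were seen, stood at 0.436 and 0.203. There was no late library of TG6 replicate 3, and the source of the low B2m was not tested. Several TG6 results turn on the mature library of replicate 3. Without it, TG6 late to mature rises were also called for B2m (log2 fold change 0.89, limma adjusted p = 0.000968), Tapbp, Tap1 and H2-T23.

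Tap1, Tap2 and Tapbp load the peptides, and they did not move alike. Tap1 in TG6 read 2147, 1992 and 1912 in the early, 4176 and 4649 in the late and 5795, 6767 and 4243 in the mature libraries. In OT-1 it read 2131, 1872 and 2131, then 2769, 2569 and 2372, then 3983, 4043 and 3517. In F5 it read 2198, 2374 and 2203, then 1726, 2426 and 2239, then 1606, 2348 and 2281. The 3 stages were separate in OT-1, overlapped throughout in F5, and in TG6 the early libraries lay below all the others. From early to mature Tap1 rose 2.73-fold in TG6 (log2 fold change 1.45 ± 0.15 SE, limma adjusted p = 1.05e-07) and 1.88-fold in OT-1 (log2 fold change 0.91 ± 0.15 SE, limma adjusted p = 0.000112). In F5 it was not called (log2 fold change −0.14 ± 0.15 SE, limma adjusted p = 0.605, 95% interval −0.46 to 0.18). The replicate block added the calls of Tap1 from early to late in OT-1 (log2 fold change 0.33, limma adjusted p = 0.0273) and from late to mature in TG6 (log2 fold change 0.43, limma adjusted p = 0.0212). With a random block the former was called (limma adjusted p = 0.0445) and the latter was not.

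Tap2, the partner of Tap1 in the transporter, had log2 fold changes of −0.33 to 0.27 between stages. It lay at 4289.9 to 4763 in early, 5244 to 5648 in late and 3703 to 4676 in mature TG6 libraries. In F5 the ranges were 4701 to 4921, 4527 to 5186 and 3829.9 to 4059.9, and in OT-1 3244 to 3358, 3486 to 3606 and 3029 to 3274. All 9 OT-1 libraries read below all 17 libraries of the other lines. From late to mature Tap2 was lower in TG6 (log2 fold change −0.33 ± 0.09 SE, limma adjusted p = 0.00954) and in F5 (log2 fold change −0.28 ± 0.08 SE, limma adjusted p = 0.016). The TG6 call was lost when only its 2 groups were fitted (limma adjusted p = 0.235) and without late replicate 1 (0.122). The F5 call was lost under quantile normalization (0.099), when only its 2 groups were fitted (0.104), and without late replicate 2 (0.0942) or mature replicate 3 (0.0557), by limma adjusted p. The OT-1 change was −0.17 (limma adjusted p = 0.122). From early to late it was higher in TG6 by 1.21-fold (log2 fold change 0.27 ± 0.09 SE, limma adjusted p = 0.0287), a call that was lost with the replicate block (limma adjusted p = 0.0714), with no filter (0.0503) and when any 1 of 4 of the 5 libraries was left out (0.0605 to 0.23).

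Tapbp, which codes for tapasin, rose between early and late in all 3 lines. It lay at 1387 to 1532, 4072 to 5135 and 3703 to 6287 in the early, late and mature libraries of TG6. The ranges were 1262 to 1599, 2217 to 2524 and 2531 to 2897 in F5, and 1765 to 1909.6, 4323 to 4562 and 3923 to 5018 in OT-1. The early libraries were the lowest in every line, without overlap. From early to late Tapbp rose 3.11-fold in TG6 (log2 fold change 1.64 ± 0.16 SE, limma adjusted p = 1.53e-07), 1.64-fold in F5 (log2 fold change 0.71 ± 0.15 SE, limma adjusted p = 0.000856) and 2.39-fold in OT-1 (log2 fold change 1.26 ± 0.15 SE, limma adjusted p = 2.9e-06). No line was called from late to mature.

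H2-T23 codes for the heavy chain of Qa-1, a ligand of CD94/NKG2A, and was called at few of the steps. It lay at 2962 to 3467, 4279 to 4759.8 and 3787 to 5938 in the early, late and mature TG6 libraries. The ranges were 2765 to 3053, 2924 to 3873 and 2410.1 to 2935 in F5 and 3339.8 to 3542, 4069.8 to 4714 and 3451 to 3899 in OT-1. In F5 and OT-1 the late mean was the highest of the 3 stages. With the replicate block these steps were called: early to late in F5 (limma adjusted p = 0.0269) and OT-1 (0.0047), and late to mature downwards in F5 (0.00873) and OT-1 (0.0328). With a random block 2 of the 4 were called, OT-1 from early to late (limma adjusted p = 0.0133) and F5 from late to mature (0.0237). Without the block none of the 4 steps was called, at limma adjusted p of 0.155, 0.0526, 0.0838 and 0.172. In TG6 it was called higher from early to late (log2 fold change 0.48 ± 0.15 SE, limma adjusted p = 0.0233), a call lost without early replicate 3 (limma adjusted p = 0.0886), late replicate 1 (0.057) or late replicate 2 (0.191). H2-T23 in TG6 rose from early to mature by 1.56-fold (log2 fold change 0.65 ± 0.14 SE, limma adjusted p = 0.000618), and the blocked fit also called its late to mature rise (log2 fold change 0.31, limma adjusted p = 0.0405), which the random block did not.

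H2-Q6 and H2-Q7 are neighbours in the Q region and code for Qa-2 antigens. H2-Q7 in TG6 read 429, 556 and 424 in the early, 1474 and 2223 in the late and 10478, 14394 and 7547 in the mature libraries. In OT-1 it read 238, 159 and 174, then 414, 441 and 280.3, then 2339, 2335 and 1616. In F5 it read 94.6, 122 and 107, then 78.3, 96.7 and 188, then 173, 142 and 182. The 3 stages were separate in TG6 and in OT-1, while the late F5 libraries spanned both other F5 stages. From early to mature H2-Q7 rose 22.4-fold in TG6 (log2 fold change 4.48 ± 0.28 SE, limma adjusted p = 2.99e-11) and 11-fold in OT-1 (log2 fold change 3.46 ± 0.28 SE, limma adjusted p = 7.65e-09). In F5 it was not called (log2 fold change 0.62 ± 0.28 SE, limma adjusted p = 0.136), but was with the replicate block (limma adjusted p = 0.0362), though not with a random block.

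H2-Q6 was the gene with the widest gap between lines. In TG6 it read 422, 529 and 445 in the early, 1304 and 1907 in the late and 5400.4, 6247 and 3751 in the mature libraries. In OT-1 it read 4.21, 14.4 and 12.5, then 14, 7.06 and 18, then 79.8, 78.4 and 49.4. In F5 it read 4.11, 8.16 and 6.55, then 3.44, 11.9 and 9.45, then 11.1, 8.77 and 8.46. All 8 TG6 libraries lay above all 18 others, and F5 stayed near the filter of 10 normalized counts at every stage. From early to mature it rose in TG6 (log2 fold change 3.44 ± 0.41 SE, limma adjusted p = 7.49e-07) and in OT-1 (log2 fold change 2.74 ± 0.41 SE, limma adjusted p = 3.54e-05). The F5 change was 0.55 ± 0.41 SE (limma adjusted p = 0.411), at a level where the added 1 of the log scale understates ratios.

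Reads of the Q genes are hard to keep apart. Of the 50-base windows of the longest protein-coding transcript, 34.9% of those of H2-Q7 and 32.0% of those of H2-Q6 were also found in a transcript of another gene, most often of the other of the pair (19.3% and 13.9%). The shares were 28.8% for H2-T23, 14.3% for H2-D1, 8.79% for H2-K1, 2.0% for Tapbp, and 0 for B2m and Nlrc5. The values of single Q genes are therefore uncertain, and the reference genome holds the H2b haplotype only. H2-Q5, H2-Q6, H2-Q7 and H2-Q10 were summed and tested as 1 gene, an analysis added after the data were seen. The sum rose from early to mature in TG6 (log2 fold change 3.38 ± 0.19 SE, limma adjusted p = 5.59e-12) and in OT-1 (log2 fold change 2.16 ± 0.19 SE, limma adjusted p = 2.2e-08). In F5 it was not called (log2 fold change −0.15 ± 0.19 SE, limma adjusted p = 0.667). From early to late the sum rose in TG6 (log2 fold change 1.40, limma adjusted p = 2.5e-05) and fell in F5 (log2 fold change −0.64, limma adjusted p = 0.0134). In OT-1 the sum was not called at this step (log2 fold change 0.11, limma adjusted p = 0.731), where H2-Q7 alone was. At the mature stage it was higher in OT-1 than in F5 (log2 fold change 2.63 ± 0.19 SE, limma adjusted p = 2e-09) and lower in OT-1 than in TG6 (log2 fold change −3.10 ± 0.19 SE, limma adjusted p = 1.17e-10).

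**Figure D3:**
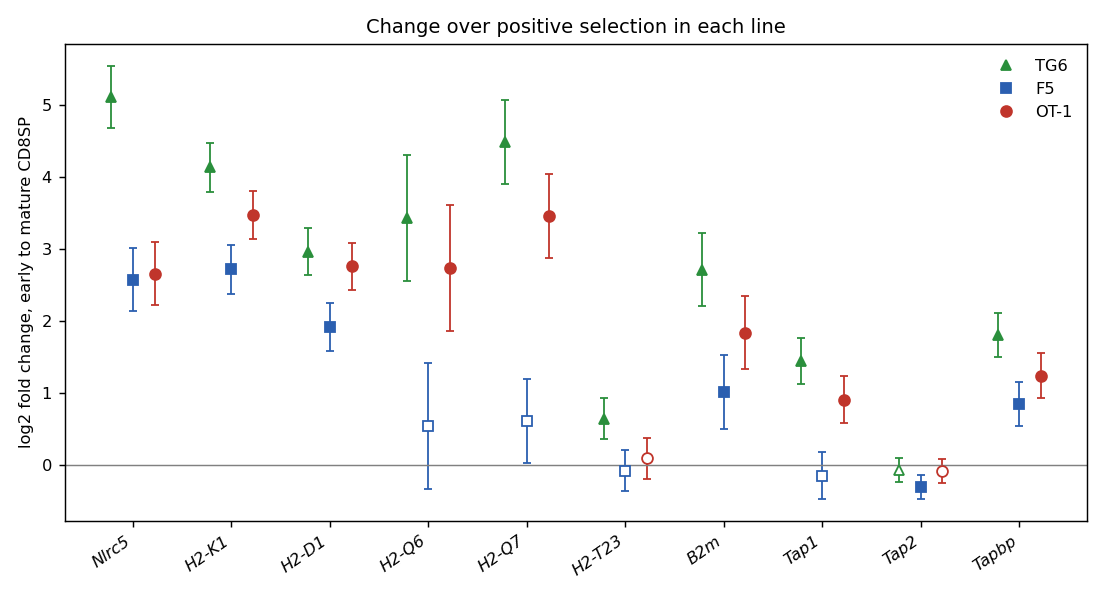
Log2 fold change from early positive selection to mature CD8SP (vertical axis) for each gene in TG6 (green triangles), F5 (blue squares) and OT-1 (red circles); bars are 95% confidence intervals from limma, and open symbols were not called (adjusted p at or above 0.05). TG6 had the highest estimate for 10 of the 10 genes, and Tap2 lay closest to 0 in TG6 and OT-1.

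By single steps, the early to late change was called for 10 of 10 genes in TG6, all higher, against 25.4% of all genes (12.1% higher and 13.3% lower). It was called for 6 in OT-1, against 26.7% of all genes (12.7% higher and 14% lower) and 4 in F5, against 26.7% of all genes (12.7% higher and 14% lower), again all higher. Under quantile normalization the all-gene splits of this step turned from 1984 higher and 2174 lower to 2348 and 1977 in TG6, from 2080 and 2287 to 2318 and 2131 in OT-1, and from 2079 and 2294 to 2379 and 2106 in F5. The early to late call of H2-Q6 in TG6 was lost without late replicate 2 (limma adjusted p = 0.0996), and that of H2-Q7 in OT-1 without early replicate 2 (0.0533) or late replicate 2 (0.058). From late to mature, 4 genes were higher and 1 lower in TG6, against 22.3% of all genes (14.5% higher and 7.79% lower), 5 higher in OT-1, against 24.4% of all genes (14% higher and 10.4% lower) and 2 higher and 1 lower in F5, against 20.5% of all genes (12.2% higher and 8.31% lower). Under quantile normalization the F5 split was 2 higher and 0 lower. With the replicate block, the late to mature counts were 7 higher and 1 lower in TG6, against 24.5% of all genes (15% higher and 9.47% lower) in that fit, and 3 higher and 2 lower in F5, against 29.3% of all genes (16.1% higher and 13.2% lower). The direction of all genes called depends on the scaling: for TG6 from late to mature 2379 were higher and 1276 lower, but 1919 and 1938 under total scaling and 1905 and 1951 under quantile normalization, and for OT-1 2300 and 1697 became 1879 and 2187 under quantile normalization and 1945 and 2093 under total scaling. Without late replicate 1 the TG6 count was 2, against 12.9% of all genes, and without mature replicate 3 it was 9, against 17.1%. Without late replicate 2, or without mature replicate 3, the F5 count was 1, against 16.8 and 18.1% of all genes.

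The second comparison asked how the lines differ at the same stage, the question of the study being how self-reactivity shapes gene expression. OT-1 and F5 differ in receptor and in the Rag gene deleted. Few of the genes were called between them at the early stage and most at the mature stage. At the early stage, 2 of 10 genes were called between OT-1 and F5, against 12.7% of all genes (7.81% higher and 4.88% lower). Nlrc5 was higher in OT-1 by 1.82-fold (log2 fold change 0.86 ± 0.21 SE, limma adjusted p = 0.00672) and Tap2 was lower by 1.46-fold (log2 fold change −0.55 ± 0.08 SE, limma adjusted p = 5.43e-05). At the late stage 5 genes (H2-K1, H2-Q7, B2m, Tapbp and Nlrc5) were higher and Tap2 was lower in OT-1 than in F5, against 24% of all genes (13.6% higher and 10.4% lower), and at the mature stage 9 were higher and 1, Tap2, lower, against 23.3% of all genes (13.3% higher and 10.1% lower).

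At the mature stage the largest OT-1 over F5 differences were those of H2-Q7 (12.4-fold, log2 fold change 3.64 ± 0.28 SE, limma adjusted p = 6.48e-09) and H2-Q6 (6.61-fold, log2 fold change 2.73 ± 0.41 SE, limma adjusted p = 7.14e-05). H2-K1 was 2.11-fold higher (log2 fold change 1.08 ± 0.16 SE, limma adjusted p = 5.22e-05), B2m 1.95-fold (log2 fold change 0.97 ± 0.24 SE, limma adjusted p = 0.00642) and Nlrc5 1.93-fold (log2 fold change 0.95 ± 0.21 SE, limma adjusted p = 0.00226). Tap1 was 1.87-fold, Tapbp 1.66-fold and H2-D1 1.53-fold higher in OT-1. All these genes had mature OT-1 libraries that lay wholly above the mature F5 libraries. H2-T23 was 1.34-fold higher (log2 fold change 0.42 ± 0.14 SE, limma adjusted p = 0.0272), but the call was lost under total scaling (limma adjusted p = 0.188), under quantile normalization (0.0998) and when any 1 of 3 of the 6 libraries was left out (0.0684 to 0.125). The H2-D1 call was lost without OT-1 mature replicate 2 (limma adjusted p = 0.0501). Over all genes the mature contrast held 2174 higher and 1647 lower, but 1365 and 2600 under total scaling and 1625 and 2005 under quantile normalization. Total scaling also turned the early split from 1278 and 799 to 1009 and 1301 and the late split from 2230 and 1697 to 1886 and 2209. It moved the median of all genes in this contrast by −0.13 on the log2 scale, and ended the late-stage call of Nlrc5 (limma adjusted p = 0.0577), which was also lost when any 1 of 4 of its 6 libraries was left out.

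Against TG6, both other lines had lower levels of most of the genes at the late and mature stages. At the mature stage 8 of 10 genes were lower in OT-1 than in TG6 and 0 higher, against 9.74% of all genes (4.67% higher and 5.08% lower). For F5 against TG6 the count was 9 lower and 0 higher, against 6.64% of all genes (2.14% higher and 4.5% lower). At the late stage 7 were lower in OT-1, against 15.5% of all genes (9.34% higher and 6.21% lower) and 8 in F5, against 4.97% of all genes (1.75% higher and 3.23% lower), with 0 higher. Under total scaling the split of all genes for OT-1 against TG6 went from 2520 higher and 2035 lower to 1938 and 2805 at the early stage, from 1529 and 1016 to 1090 and 1710 at the late stage, and from 764 and 831 to 512 and 1168 at the mature stage. The exceptions at the late stage were H2-T23 in both lines, Tapbp and B2m in OT-1, and Tap2 in F5. Without TG6 late replicate 2 the late OT-1 count was 4, against 6.72% of all genes. The late OT-1 call of H2-K1 (limma adjusted p = 0.0438) was lost with no filter (0.0696), with no variance trend (0.0675), when only its 2 groups were fitted (0.1), with a random block (0.0574) and when any 1 of 3 of the 5 libraries was left out (0.0872 to 0.442). Without TG6 late replicate 2 the late calls of Nlrc5 and Tap1 in OT-1 (limma adjusted p = 0.0526 and 0.0599) and of B2m and Tapbp in F5 (0.0905 and 0.059) were lost too, and that of Tap1 in F5 was lost when only its 2 groups were fitted (0.0607). At the early stage OT-1 had 4 lower and 1 higher, against 27.8% of all genes (15.4% higher and 12.4% lower) and F5 3 lower and 0 higher, against 6.46% of all genes (3.12% higher and 3.35% lower). The 1 higher gene was Nlrc5, 2.27-fold above TG6 in early OT-1 (log2 fold change 1.18 ± 0.21 SE, limma adjusted p = 0.000188).

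**Figure D4:**
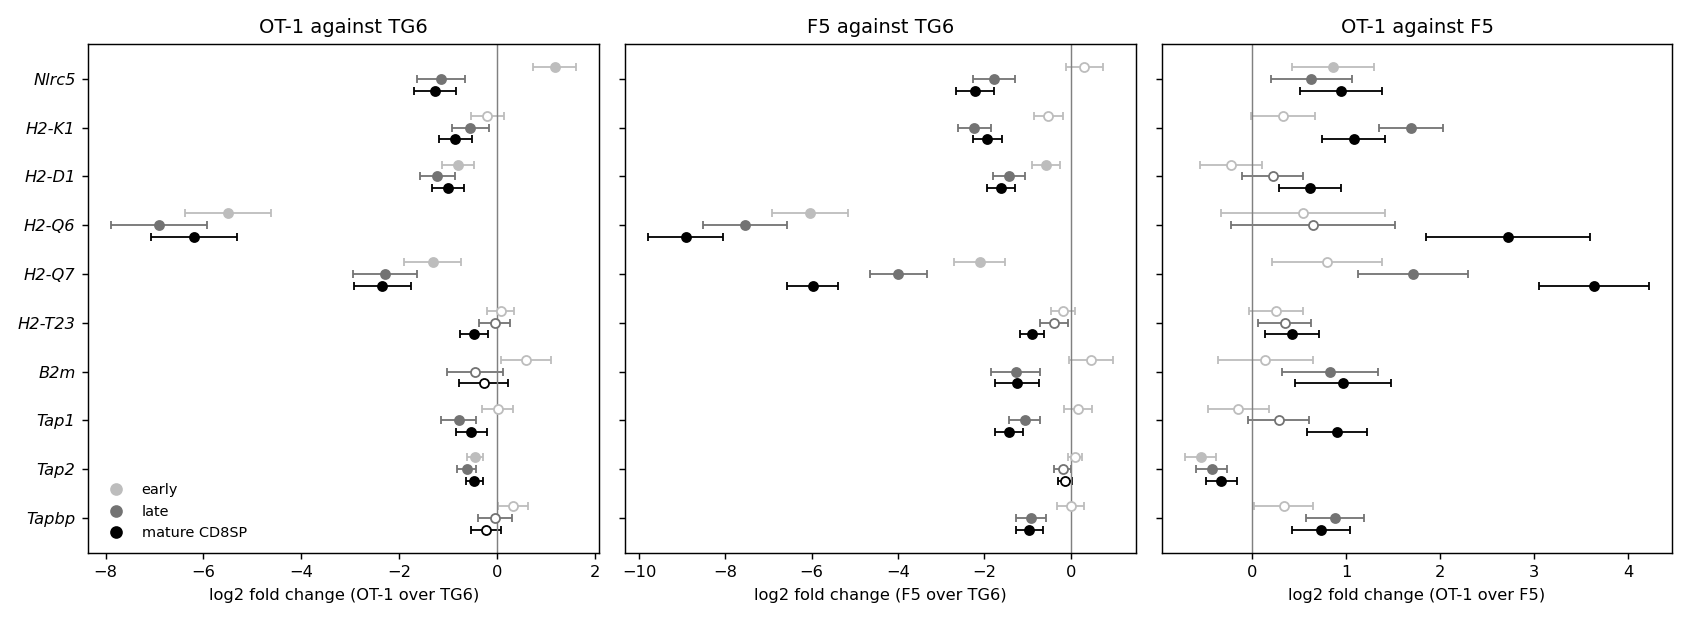
Log2 fold change between lines (horizontal axes) for each gene (rows), with OT-1 over TG6 on the left, F5 over TG6 in the middle and OT-1 over F5 on the right; light grey, dark grey and black circles are the early, late and mature CD8SP stages, bars are 95% confidence intervals from limma, and open circles were not called. H2-Q6 lay at −5.50 to −6.90 against TG6 in OT-1 and at −6.04 to −8.92 in F5, and Tap2 was called lower in OT-1 at all 3 stages against both other lines.

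The largest gaps to TG6 were those of H2-Q6, which was lower in OT-1 by 45.2-fold at the early stage (log2 fold change −5.50 ± 0.41 SE, limma adjusted p = 2.41e-09), by 120-fold at the late stage and by 73.2-fold at the mature stage (log2 fold change −6.19 ± 0.41 SE, limma adjusted p = 6.27e-10). In F5, where it lay near the filter of 10, H2-Q6 was lower by 65.6-, 187- and 484-fold at the early, late and mature stages. H2-Q7 was lower in mature OT-1 by 5.05-fold (log2 fold change −2.34 ± 0.28 SE, limma adjusted p = 5.78e-06) and in mature F5 by 62.9-fold (log2 fold change −5.97 ± 0.28 SE, limma adjusted p = 1.05e-12). H2-D1 was lower than in TG6 at all 3 stages in both lines. Its early OT-1 difference was −0.80 ± 0.16 SE (limma adjusted p = 0.000606) and its early F5 difference −0.57 ± 0.16 (limma adjusted p = 0.0286), the second of which was lost when any 1 of 5 of the 6 libraries was left out. These H2 genes lie in the region for which the haplotype of TG6 differs, so that read assignment and transcript level cannot be told apart for them. H2-Ea-ps, the pseudogene that stands for H2-Ea in the H2b reference and was chosen after its values were seen, was listed at 0 in all 18 F5 and OT-1 libraries and averaged 2.28, 28.5 and 78.5 normalized counts in early, late and mature TG6.

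Nlrc5 and B2m, which lie on other chromosomes, give the contrast with TG6 outside the H2 region. Mature Nlrc5 was lower in OT-1 by 2.40-fold (log2 fold change −1.26 ± 0.21 SE, limma adjusted p = 0.0003) and in F5 by 4.63-fold (log2 fold change −2.21 ± 0.21 SE, limma adjusted p = 8.54e-08). The mature TG6 libraries lay above all mature F5 and OT-1 libraries for this gene. Mature B2m was lower in F5 by 2.35-fold (log2 fold change −1.23 ± 0.24 SE, limma adjusted p = 0.00169), a call lost when only the 2 groups were fitted (limma adjusted p = 0.247), as were those of H2-T23 and Tapbp, which left 6 of the 9, against 2.11% of all genes. In OT-1 mature B2m was not called (log2 fold change −0.27 ± 0.24 SE, limma adjusted p = 0.514), and TG6 replicate 3 read below all OT-1 libraries, with replicates 1 and 2 above them. With TG6 mature replicate 3 left out it was called (log2 fold change −0.72, limma adjusted p = 0.00189), as was Tapbp (log2 fold change −0.46, limma adjusted p = 0.00557), and 10 of 10 genes were then lower in OT-1, against 27.2% of all genes called in that fit. The OT-1 against TG6 calls of mature Tap1 and H2-T23 (limma adjusted p = 0.0349 and 0.0321) were each lost when any 1 of the 5 libraries other than TG6 replicate 3 was left out, and with only these 6 libraries fitted 2 genes, H2-Q6 and H2-Q7, were called, against 1.65% of all genes.

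Ordered by their means, 9 of the 10 genes ranked TG6, OT-1, F5 from highest to lowest at both the late and the mature stage. Tap2 ranked TG6, F5, OT-1 at both. For H2-K1, H2-Q7 and Nlrc5 no neighbours in this order overlapped at either stage. At the late stage the neighbours OT-1 and F5 overlapped for H2-D1, H2-Q6 and Tap1, and TG6 and OT-1 for H2-T23 and Tapbp. At the mature stage TG6 and OT-1 overlapped for H2-T23, Tapbp and B2m, and TG6 and F5 for Tap2. The order by self-reactivity would place F5 between TG6 and OT-1, and the contrasts between lines share their groups.

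Whether the change from early to mature itself differed between lines was tested as an interaction for OT-1 against each other line, and F5 against TG6 was not tested. For OT-1 against TG6, 1 of 10 genes was called, against 4.2% of all genes (1.28% higher and 2.91% lower). It was Nlrc5, whose log2 rise was smaller in OT-1, a 5.46-fold difference (log2 fold change −2.45 ± 0.29 SE, limma adjusted p = 2.37e-05). For OT-1 against F5, 2 genes were called, against 1.64% of all genes (0.818% higher and 0.825% lower). H2-Q7 rose more in OT-1 by 7.17-fold (log2 fold change 2.84 ± 0.39 SE, limma adjusted p = 0.000493) and Tap1 by 2.07-fold (log2 fold change 1.05 ± 0.22 SE, limma adjusted p = 0.0108). The split of all genes for OT-1 against F5 was 134 higher and 135 lower, and 119 and 183 under total scaling. Nlrc5 itself did not pass in this contrast (log2 fold change 0.08 ± 0.29 SE, limma adjusted p = 0.952, 95% interval −0.53 to 0.70). With the replicate block, 7 genes were called for OT-1 against TG6, all with the smaller rise in OT-1, against 7.77% of all genes (2.77% higher and 5% lower). For OT-1 against F5, 6 were called, all with the larger rise in OT-1, against 5.41% of all genes (2.47% higher and 2.94% lower). The genes gained against TG6 were H2-K1 (−0.66), H2-Q7 (−1.03), H2-T23 (−0.54), B2m (−0.87), Tap1 (−0.54) and Tapbp (−0.56), each given as a log2 difference, at limma adjusted p of 0.000375 to 0.0443. Those gained against F5 were H2-K1 (0.75), H2-D1 (0.84), H2-Q6 (2.19) and B2m (0.82), at limma adjusted p of 0.00154 to 0.0411. With a random block H2-K1, H2-T23 and B2m of these were called against TG6, and H2-K1, H2-D1 and H2-Q6 against F5, while H2-Q7, Tap1 and Tapbp against TG6 and B2m against F5 were not. Without TG6 mature replicate 3, 6 genes were called for OT-1 against TG6, against 7.04% of all genes.

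The balance of heavy chains differed between the stages. Per kilobase of transcript, 19 measured heavy chain genes were summed and each gene was given as a share of that sum. H2-K1 and H2-D1 together held 13.3% ± 0.476 (SD, n = 3) of the summed level in early TG6, 14.3% ± 0.111 in early F5 and 11.1% ± 0.585 in early OT-1. In late cells they held 46.4% ± 0.157 (SD, n = 2) in TG6, 37.7% ± 5.23 in F5 and 45.4% ± 3.68 in OT-1. In mature cells they held 41.5% ± 3.34 in TG6, 55.7% ± 3.91 in F5 and 56.1% ± 3.53 in OT-1. The early and mature ranges were separate in every line, and in TG6 the mature libraries (37.8 to 44.3%) lay below the late ones. H2-T23 held 14.6% ± 1.28, 20.3% ± 0.512 and 18.9% ± 0.488 of the sum in early TG6, F5 and OT-1. In late cells its share was 12.4% ± 0.869, 25.3% ± 2.88 and 21.9% ± 3.00, above the early mean in F5 and OT-1. In mature cells it was 6.34% ± 0.553, 15.7% ± 1.45 and 11.7% ± 0.788. The direction from early to late depends on the genes summed. As a share of the 5 members alone, H2-T23 fell at this step from 46.4 to 18.6% in TG6, 57.4 to 39.7% in F5 and 60.7 to 31.7% in OT-1. Of the sum of 19 genes, H2-Q6 and H2-Q7 held 4.42% ± 0.234 and 12.6% ± 1.51 in mature TG6, 0.0383% ± 0.00657 and 0.922% ± 0.134 in mature F5, and 0.153% ± 0.0239 and 6.37% ± 0.647 in mature OT-1. The summed level of the 19 genes, a test added after the data were seen, rose from early to mature in TG6 (log2 fold change 1.88 ± 0.11 SE, limma adjusted p = 2.44e-11), OT-1 (log2 fold change 0.97 ± 0.11 SE, limma adjusted p = 1.63e-06) and F5 (log2 fold change 0.45 ± 0.11 SE, limma adjusted p = 0.00681). By the interaction test this rise was smaller in OT-1 than in TG6 (log2 difference −0.91 ± 0.16 SE, limma adjusted p = 0.00138). Between OT-1 and F5 it was not called (log2 difference 0.52 ± 0.16 SE, limma adjusted p = 0.127).

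**Figure D5:**
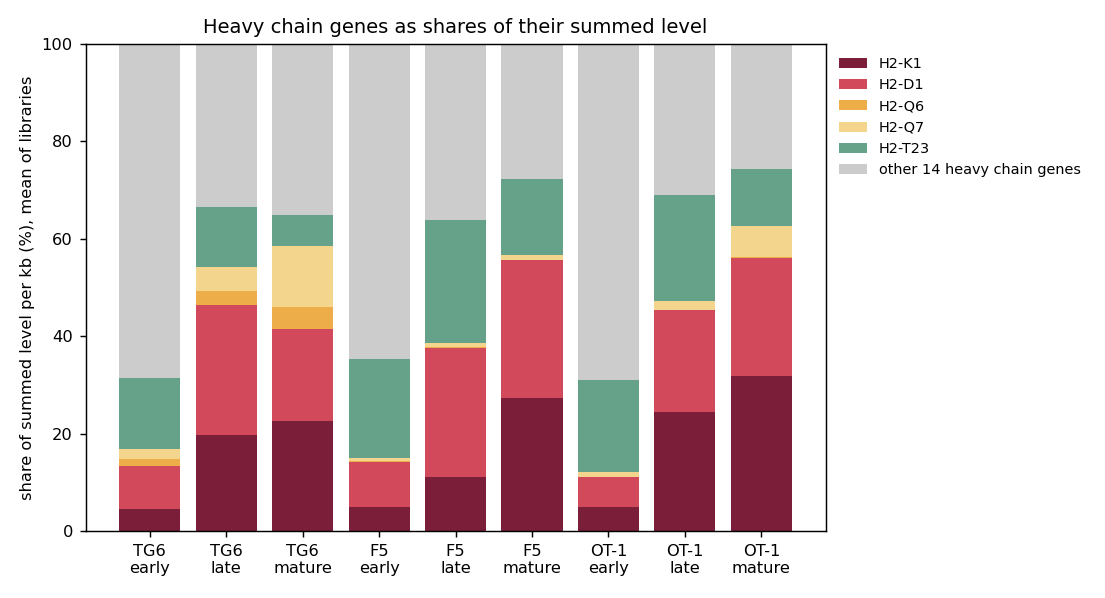
Share of the summed level per kilobase of 19 class I heavy chain genes (vertical axis, percent, mean of the libraries) held by each of 5 genes and by the other 14 together, in the 9 groups. H2-K1 and H2-D1 together held 11.1 to 14.3% in the early, 37.7 to 46.4% in the late and 41.5 to 56.1% in the mature groups, with mature TG6 below late TG6, and H2-Q7 held 12.6% in mature TG6, 6.37% in mature OT-1 and 0.922% in mature F5.

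Other genes of the pathway were counted as lists. The immunoproteasome subunits, which cut peptides to fit class I, and the proteasome activator were higher at the mature than at the early stage for 5 of 5 genes in TG6, 4 of 5 in OT-1 and 2 of 5 in F5, with 0 lower. The share of all genes called in these contrasts was 34.6% in TG6, 23.2% in OT-1 and 19.6% in F5. Their median log2 fold changes were 1.37, 0.71 and 0.14, beside the medians over all genes given above. From early to late in F5, 0 were higher and 3 lower (median −0.44), against 26.7% of all genes called. These were the subunits Psmb8 (log2 fold change −0.85 ± 0.11 SE, limma adjusted p = 8.95e-06), Psmb9 and Psmb10, named after their values were seen. In OT-1 3 were higher and 1, Psmb8, lower at this step (log2 fold change −0.33, limma adjusted p = 0.0359). Psme2, an activator subunit, averaged 791 ± 126 normalized counts in early and 1327 ± 299 in mature F5 (SD, n = 3, log2 fold change 0.73 ± 0.21 SE, limma adjusted p = 0.0159). In OT-1 it went from 899 ± 322 to 3432 ± 669 (log2 fold change 1.97 ± 0.21 SE, limma adjusted p = 4.04e-07). Psme1, its partner, rose by a log2 fold change of 0.34 ± 0.08 SE in F5 (limma adjusted p = 0.00422) and 1.02 ± 0.08 in OT-1 (limma adjusted p = 6.61e-09). At the mature stage 5 of 5 had higher levels in OT-1 than F5, 5 of 5 were lower in F5 than in TG6, and 0 of 5 were called between OT-1 and TG6, where 23.3, 6.64 and 9.74% of all genes were called. The early to mature change of 4 of 5 differed between OT-1 and F5, all with the larger rise in OT-1, and that of 1 of 5 differed between OT-1 and TG6, with the smaller rise in OT-1, where 1.64 and 4.2% of all genes were called.

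Of the 5 partners of peptide loading (Calr, Canx, Pdia3, Tapbpl and Erap1), 4 were higher at the mature stage in TG6, 4 in OT-1 and 2 in F5, and 0 were lower, against 34.6% of all genes in TG6, 23.2% in OT-1 and 19.6% in F5, with median log2 fold changes of 0.63, 0.51 and 0.30. Calr, a chaperone of the loading complex, rose by 0.60 ± 0.12 SE on the log2 scale in F5 (limma adjusted p = 0.00107). Erap1, which trims peptides in the endoplasmic reticulum, rose by 1.31 ± 0.08 in TG6, 0.54 ± 0.08 in F5 and 1.10 ± 0.08 in OT-1 (limma adjusted p = 1.79e-11, 2.64e-05 and 1.52e-09). At the mature stage 4 of 5 were higher in OT-1 than in F5, against 23.3% of all genes called.

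The other class I heavy chains moved in both directions. Of 18 listed genes, 14 were tested, and H2-Q8, H2-Q9, H2-T9 and H2-L were not analysed here. From early to late, 6 were higher and 6 lower in TG6, 2 higher and 5 lower in OT-1, and 1 higher and 6 lower in F5, against 25.4, 26.7 and 26.7% of all genes. From early to mature, 8 were higher and 5 lower in TG6, 5 higher and 4 lower in OT-1, and 1 higher and 5 lower in F5, against 34.6% of all genes in TG6, 23.2% in OT-1 and 19.6% in F5. The median log2 fold changes were 0.89, 0.10 and −0.41. H2-Q2 fell in all 3 lines, from 3608 ± 250.2 to 819 ± 436 in F5 (log2 fold change −2.26 ± 0.30 SE, limma adjusted p = 6.51e-06) and from 5550.2 ± 127 to 1172 ± 403 in OT-1 (log2 fold change −2.30 ± 0.30 SE, limma adjusted p = 4.91e-06). H2-Q1 also fell in all 3, with log2 fold changes of −1.29, −1.24 and −1.12 in TG6, F5 and OT-1. H2-Bl fell in F5 and OT-1 (log2 fold changes −2.70 and −2.10) and was not called in TG6 (0.64, limma adjusted p = 0.339). H2-Q4, which shares 12.3% of the 50-base transcript windows of H2-Q6, rose in TG6 (log2 fold change 1.15 ± 0.15 SE, limma adjusted p = 2.19e-06) and fell in F5 (log2 fold change −0.64 ± 0.15 SE, limma adjusted p = 0.00319). H2-Q5, which shares 15.2% of those of H2-Q7, averaged 7006 ± 1700.1 in mature TG6, 124 ± 29.8 in mature F5 and 489 ± 231 in mature OT-1. Against TG6 at the mature stage, 11 of 14 were lower in OT-1 and 12 of 14 in F5, with 0 higher, against 9.74 and 6.64% of all genes called. Of the 14, H2-M2 and H2-M5 passed the filter through TG6 libraries only, and H2-M5 through early ones only, so that a level below TG6, or below early TG6, was fixed for them. Of the other 12, 10 were lower in OT-1 and 11 in F5.

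Of 5 class I-like molecules, 1 was higher and 3 lower at the mature stage in TG6 and in OT-1, and 1 higher and 2 lower in F5, against 34.6% of all genes in TG6, 23.2% in OT-1 and 19.6% in F5. Fcgrt, the heavy chain of the neonatal Fc receptor, rose in all 3 lines from low levels, in F5 from 2.27 ± 2.02 to 68.2 ± 5.61 normalized counts (log2 fold change 4.69 ± 0.43 SE, limma adjusted p = 6.23e-08). Its early F5 level was below the floor of 3, so that this fold depends on the added 1. Mr1, which presents vitamin B metabolites to MAIT cells, fell in all 3 lines, in F5 from 1944 ± 256 to 402 ± 90.0 (log2 fold change −2.28 ± 0.23 SE, limma adjusted p = 1.95e-07). Cd1d2, a lipid-presenting molecule, fell with log2 fold changes of −2.26, −1.17 and −2.48 in TG6, F5 and OT-1.

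The 13 partners and inducers of Nlrc5 moved in both directions. From early to mature, 4 were higher and 3 lower in TG6, 3 higher and 3 lower in OT-1, and 1 higher and 4 lower in F5, against 19.4% of all genes higher and 15.2% lower in TG6, 12.8 and 10.5% in OT-1 and 10.8 and 8.79% in F5, with medians of −0.17, −0.21 and −0.21. Rfx5, a DNA-binding partner at class I promoters, was lower in F5 (log2 fold change −0.81 ± 0.15 SE, limma adjusted p = 0.000484) and OT-1 (log2 fold change −0.54 ± 0.15 SE, limma adjusted p = 0.0115). Nfya, a subunit of the CCAAT-binding factor NF-Y, was lower in F5 (log2 fold change −0.80 ± 0.21 SE, limma adjusted p = 0.00722). Ifngr1, a chain of the interferon gamma receptor, fell in all 3 lines, in TG6 from 11006 ± 1606 to 2467 ± 1689 (log2 fold change −2.35 ± 0.31 SE, limma adjusted p = 3.22e-06).

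The 7 genes of the class II list, most of which lie in the same complex, were higher at the mature stage for 7 of 7 in TG6, 3 of 7 in F5 and 0 of 7 in OT-1, against 19.4, 10.8 and 12.8% of all genes higher, with median log2 fold changes of 2.45, 1.96 and 0.81. Their summed level ran from 348 to 394 in early and from 1742 to 3187 in mature TG6 libraries, from 312 to 862 and from 552 to 1418 in F5, and from 513 to 1187 and from 1113 to 1628 in OT-1. Ciita, the class II counterpart of Nlrc5, averaged 1.62 to 40.7 normalized counts over the 9 groups and rose in TG6 (log2 fold change 2.45 ± 0.49 SE, limma adjusted p = 0.000389) and F5 (log2 fold change 3.08 ± 0.49 SE, limma adjusted p = 7.02e-05), where it started below the floor of 3 and the fold depends on the added 1. H2-Eb1 averaged 272 ± 173 in mature TG6, 86.5 ± 62.3 in mature F5 and 178 ± 44.5 in mature OT-1. Class II genes also mark antigen-presenting cells.

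Across the 26 libraries, the log2 values of H2-K1 and H2-D1 had a Pearson correlation of 0.96, B2m and Tapbp of 0.96, and Nlrc5 and Tapbp of 0.94. Tap2 correlated with the other 9 at −0.19 to 0.29. The 5 genes outside these lists with the pattern most like the mean of B2m, Tap1, Tap2, Tapbp and Nlrc5 were Pydc3 (0.943), RP23-253G12.9 (0.927), Trim30d (0.921), Gbp9 (0.917) and 9330175E14Rik (0.915), by Pearson correlation over the 26 libraries. These correlations describe libraries that share 9 groups and were given no test.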

How the data were processed

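RNA was measured in 26 libraries of sorted thymocytes. The submitters' processing notes name Trimmomatic 0.32 for trimming, Bowtie2 2.3.2 for alignment (mm10) and RSEM 1.2.31 for counting, and the authors scaled the counts by DESeq2 median-of-ratio size factors; the deposited values are this signal, normalized counts per gene that keep gene length. RSEM divides a read that fits several genes between them, which bears on the H2 genes, and the gene annotation release is not given in the sources used here. From low values, 32.1 to 42.9% came out as whole reads within 0.01, so that reads were not recovered and no count model was used.

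Genes with at least 10 normalized counts in at least 2 libraries were tested as log2(value + 1), so that fold changes of low genes are understated. One limma 3.58.1 fit (R 4.3.3) took all 9 groups (17 residual degrees of freedom, prior variance following the mean), with 20 contrasts and Benjamini-Hochberg adjustment over all 16372 genes in each. The labels number the biological replicates and the design sorts 3 mice per line into 3 populations, so that same-numbered libraries of a line may share a mouse, which no label states outright. The main fit took all libraries as independent, and the replicate block took the same number within a line as 1 mouse. Deviations of same-numbered libraries correlated at 0.106 to 0.34 in F5, 0.0189 to 0.178 in OT-1 and 0.023 to 0.274 in TG6, with 9 of 9, 5 of 9 and 2 of 7 pairs over 0.1, against at most 0.0921 for different numbers.

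The members and lists were chosen with earlier results of these data known. Of the list genes, those named are the 3 with the largest called change from early to mature in F5 and Q genes that share sequence with members. Levels per kilobase used the longest protein-coding transcript of GENCODE vM21, and promoter windows came from RefSeq (GRCm38.p6), figures from matplotlib 3.10.9. Alternatives were pseudocounts, filters, total and quantile scaling, single-contrast fits, no variance trend, leaving out each library, and the block.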

Additional observations from a re-analysis of the deposited data

Results flagged for a closer look

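For 3 of the 10 genes the change from early to mature differed between OT-1 and TG6 or F5 by the interaction test, and F5 against TG6 was not tested. The rise of Nlrc5 was smaller in OT-1 than in TG6 (log2 fold change −2.45 ± 0.29 SE, limma adjusted p = 2.37e-05), and in both lines all 3 mature libraries lay above all 3 early ones. The rise of H2-Q7 was larger in OT-1 than in F5 (log2 fold change 2.84 ± 0.39 SE, limma adjusted p = 0.000493). That of Tap1 was also larger in OT-1 than in F5 (log2 fold change 1.05 ± 0.22 SE, limma adjusted p = 0.0108). H2-Q7 is among the genes with the most sequence shared with other genes, and Nlrc5 had none. The source of these differences was not tested, and for Nlrc5 the receptor, the Rag genotype and the H2 haplotype of TG6 cannot be told apart.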

How the results depend on the processing

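No call of the 10 genes reversed under any alternative run. Over single genes and contrasts, leaving out 1 library kept 1214 results on their side of the threshold, with 15 gained and 51 lost, and the other alternatives kept 1978, with 69 gained and 33 lost. Counts of the 10 genes called moved by over 1.5 times as follows. From late to mature in TG6 the 5 called became 2 when only the contrasted groups were fitted, 8 with the replicate block within each line and 9 with both TG6 replicate 3 libraries left out, the last of which was chosen after seeing the data. From late to mature in F5 the 3 called became 5 with the replicate block. For OT-1 against TG6 at the mature stage the 8 called became 2, and for OT-1 against F5 at the early stage the 2 called became 4, when only the contrasted groups were fitted. The interaction of OT-1 with TG6 went from 1 to 7 with the replicate block, to 4 with the block as a random term (chosen after seeing the data) and to 5 with both TG6 replicate 3 libraries left out. The interaction of OT-1 with F5 went from 2 to 4 with a pseudocount of 5, to 4 when only the contrasted groups were fitted, to 6 with the replicate block and to 5 with the random block. The cause of these shifts was not tested. The block within each line changed no call other than those given with the results. Blocking on the number across lines added B2m for early OT-1 against TG6 (limma adjusted p = 0.0392) and H2-K1 for early F5 against TG6 (limma adjusted p = 0.012).

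Leaving out each library in turn gave 7 to 10 genes called in TG6 from early to late, 2 to 9 from late to mature and 9 to 9 from early to mature. In F5 it gave 4 to 4, 1 to 4 and 6 to 6, and in OT-1 5 to 6, 5 to 5 and 8 to 8. At the early, late and mature stages it gave 5 to 5, 4 to 7 and 6 to 10 for OT-1 against TG6, 2 to 2, 5 to 6 and 8 to 10 for OT-1 against F5, and 2 to 3, 6 to 8 and 9 to 10 for F5 against TG6. The interactions gave 1 to 6 (TG6) and 2 to 3 (F5). With late TG6 at 1 library, that library was assumed to vary like the other groups.

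Scaling to library totals shifted the median of all genes by −0.11 to −0.13 on the log2 scale in 4 of the 20 contrasts, and quantile normalization by −0.10 in 1. Depth limits H2-Q6 in F5, which lay at 3.4 to 11.9 normalized counts.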
